A study of Mus musculus with 6 samples.

Results

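Venous endothelial cells of the mouse aorta preparation were followed through droplet single-cell RNA sequencing, in which each captured transcript is counted once by a unique molecular identifier (UMI). They were chosen by a rule on UMIs. A barcode entered with at least 500 detected genes, at most 20% mitochondrial UMIs and at least 3 UMIs of Pecam1, Cdh5, Egfl7, Kdr and Tie1 in sum, with no UMI of the lymphatic genes Prox1 and Mmrn1 and less than 1.5% of UMIs from Acta2, Tagln, Myh11 and Cnn1. Of the 8401 endothelial barcodes that passed, those with a sum C (Selp, Lrg1, Tmem252 and Ackr1) of at least 3 UMIs, and larger than each of 3 other sums, were kept as members. The other sums were A (Gpihbp1, Car4 and Cd300lg, capillary), B (Gkn3, Klk10, Gja5 and Bmp6, large artery) and D (Sema3g, Stmn2, St8sia6 and Alpl, arteriolar). The same rule applied to A, B and D gave the 3 gates used for comparison. The venous gate held 1276 of 60871 barcodes in all. Because the rule reads expression in the same cells, every difference between gates below is a description and none was tested.

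The series holds aortic tissue from 3 Best3FL/FL samples, in which the bestrophin gene Best3 is flanked by recombination sites, and 3 Best3SMKO samples, titled as controls and KD. The sources used here do not give the driver of recombination, the age of the mice or the number of animals per sample. Barcodes carry the numbers 1 to 6, which separate 6 libraries but match no sample label, so no cell was assigned to a genotype and no library is called a replicate of a group. The 6 libraries held 7475 to 16269 barcodes and 51813179 to 96144873 UMIs. Best3 itself had 0 UMIs in members, which allows up to 0.235% of members with a UMI, and 26 in all barcodes, too few to check the labels. Of 60454 barcode sequences, 414 occurred in more than 1 library, as did the sequences of 11 members, but no sequence was carried by members of more than 1 library.

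In most organs, leukocytes leave the blood through venules and small veins. The endothelium there keeps P-selectin and von Willebrand factor in storage granules, displays chemokines on the decoy receptor ACKR1, and forms diaphragms of the protein PLVAP. Venous fate depends on the nuclear receptor COUP-TFII, encoded by Nr2f2, which holds back Notch signalling, whereas arterial endothelium relies on Notch and on ephrin-B2. The tissue was labelled as aorta, and the sources used here do not say which vessels beside the aortic lumen it contained.

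RefSeq promoter windows of the selectin genes Selp (in the gate) and Sele (outside it) and of Ackr1 are shown because these transcripts set the members apart in the values that follow. Selp, which encodes P-selectin, spans 164115264 to 164150026 of chromosome 1 in GRCm38 (plus strand), and Sele, which encodes E-selectin, lies upstream of it on the same strand at 164048234 to 164057677. Ackr1 spans 173331886 to 173333750 of that chromosome on the minus strand. The windows come from RefSeq (GRCm38.p6), run 5′ to 3′ from 250 bases before to 50 after the annotated start, and cover chr1:164115014-164115313 (plus) for Selp, chr1:164047984-164048283 (plus) for Sele and chr1:173333454-173333753 (minus) for Ackr1. By the gene span given above, which is from GENCODE, the Ackr1 window lies almost wholly inside the gene. Its RefSeq start thus differs from the start of that span, and the window may not cover the promoter of that longer form. Capitals mark letters that match the AP-1, STAT or GATA motif spelled out after the sequences.
Selp: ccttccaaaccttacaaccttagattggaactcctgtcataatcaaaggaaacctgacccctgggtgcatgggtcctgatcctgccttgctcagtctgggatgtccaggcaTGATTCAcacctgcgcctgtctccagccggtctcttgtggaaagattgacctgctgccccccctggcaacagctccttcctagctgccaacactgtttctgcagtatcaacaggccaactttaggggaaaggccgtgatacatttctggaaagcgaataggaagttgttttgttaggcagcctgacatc
Sele: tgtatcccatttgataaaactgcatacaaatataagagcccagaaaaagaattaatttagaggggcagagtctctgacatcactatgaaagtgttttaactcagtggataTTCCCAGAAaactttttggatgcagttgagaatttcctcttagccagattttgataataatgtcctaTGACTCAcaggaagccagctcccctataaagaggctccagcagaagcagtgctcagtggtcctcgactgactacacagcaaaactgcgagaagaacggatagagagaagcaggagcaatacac
Ackr1: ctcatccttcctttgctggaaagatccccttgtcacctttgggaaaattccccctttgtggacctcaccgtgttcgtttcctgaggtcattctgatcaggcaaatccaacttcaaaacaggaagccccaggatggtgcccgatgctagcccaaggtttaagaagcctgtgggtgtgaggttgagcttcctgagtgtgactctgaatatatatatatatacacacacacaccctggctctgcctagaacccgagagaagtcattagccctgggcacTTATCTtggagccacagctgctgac
In the Selp window the AP-1 letters began at position -139 from the RefSeq start, from which all positions are counted. In the Sele window the STAT letters began at -140 and the AP-1 letters at -73, and in the Ackr1 window the GATA letters began at 25. The AP-1 motif was searched as TGANTCA on both strands, and 7.8% of all 32851 RefSeq windows held it. The GATA motif was searched as AGATAA, held by 11.2% of windows. The STAT motif was TTCNNNGAA, held by 8.3%, and the C/EBP motif TTGCNNAA, held by 10.8%. The NF-kB motif was held by 8.5%, and matches of different motifs could overlap. The windows of Lrg1 and Tmem252 held no match to any of these 5 motifs. These matches are descriptions of letters and say nothing of binding.

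Members made up 15.2% of the 8401 endothelial barcodes (exact 95% binomial interval 14.4 to 16.0). The capillary gate held 3028 barcodes, the large-artery gate 1868 and the arteriolar gate 746, and 1483 met no gate. By library the members numbered 213, 246, 119, 310, 264 and 124. Their share of endothelial barcodes was lowest in library 6 at 12.7% (10.7 to 14.99), had a median of 14.9% and was highest in library 5 at 18.4% (16.5 to 20.5). Library 5 also had the smallest capillary share, 21.5%, so that it held 0.857 members per capillary barcode against 0.302 in library 6 and a median of 0.389. Dissection and dissociation can set such shares, and their part was not tested. Intervals here and below cover counting error only.

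**Figure D1:**
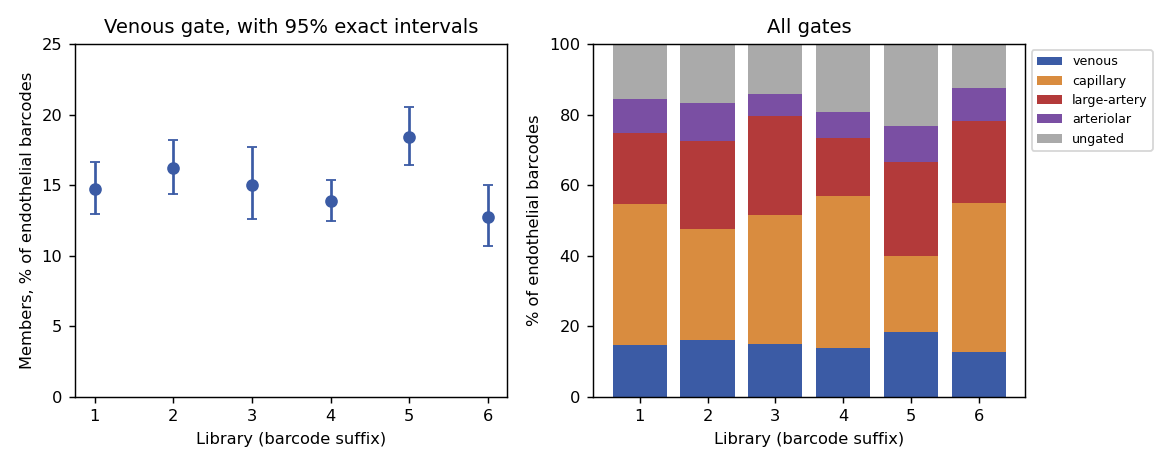
Left, members as a percentage of endothelial barcodes in each of the 6 libraries, with exact 95% binomial intervals; right, the percentage of endothelial barcodes in each gate. Member shares lay between 12.7% and 18.4%, and library 5 had the smallest capillary share, 21.5%.

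The members were deep enough for gene-level comparison. Their median depth was 5724.5 UMIs and 2386.5 genes, against 3738.5 UMIs in capillary, 6013.5 in large-artery and 5003.5 in arteriolar barcodes. The sum C ranged from 3 to 142 UMIs with a median of 13. At the threshold, the 84 members with C of 3 had 921 UMIs of Plvap per 1000000 UMIs (CPM) and 1394 CPM of Vwf, while 76 barcodes just outside it with C of 2 had 698 and 824 CPM. A further 623 endothelial barcodes had C of at least 3 but another sum as large or larger, and 335 of them lay in the large-artery gate.

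Expression of the gate genes was uneven among members. Lrg1, which encodes a secreted leucine-rich glycoprotein, was found in 95.1% of members, Selp in 71.7%, Tmem252, a small membrane protein gene, in 51.7% and Ackr1 in 40.4%. Only 303 members had UMIs of all 4 genes, and 229 had UMIs of 1 gene. In fibroblast barcodes Lrg1 was found in 2.92%, Selp in 1.002%, Tmem252 in 0.566% and Ackr1 in 4.57%. Their median of 5806 UMIs was close to the depth of the members. Ackr1 stood at 10.1 CPM in fibroblast barcodes, above the 2.91, 1.66 and 1.61 CPM of capillary, large-artery and arteriolar barcodes. Whether fibroblasts express it was not tested. Selp was not limited to members, since it was found in 49.5% of large-artery barcodes at 162 CPM.

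Over libraries, Selp ran from 438 CPM in library 4 through a median of 1015 CPM to 1362 CPM in library 3. Lrg1 varied less, from 1275 to 1802 CPM with a median of 1590 CPM. Ackr1 ran from 172 CPM in library 5 to 379 CPM in library 6 with a median of 212 CPM. Libraries 3 and 6 were the highest of the 6 for both Ackr1 and Tmem252.

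Each gate gene was also read in barcodes chosen without it. With Lrg1 removed from C, 764 barcodes met the rule and carried 1436 CPM of Lrg1, against 92.4 in capillary, 20.7 in large-artery and 58.3 CPM in arteriolar barcodes. With Selp removed, 1150 barcodes carried 840 CPM of Selp, against 19.5, 171 and 61.7 CPM. With Ackr1 removed, 1242 barcodes carried 229.5 CPM of Ackr1, against 4.39, 2.11 and 2.29 CPM, and with Tmem252 removed, 1210 barcodes carried 316 CPM of it, against 87.6, 7.53 and 27.6 CPM. In all 6 libraries each of the 4 genes was higher in these barcodes than in every other gate. All of these barcodes were also members under the full rule. The values therefore describe how the 4 genes go together in the same cells and give no separate support for the gate.

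Plvap and Vwf, markers of the label that the rule does not use, were both abundant in members. Plvap, which encodes the diaphragm protein of caveolae and fenestrae (chromosome 8, 71497765 to 71511752, minus strand), was found in 94.0% of members. Its level over libraries ran from 1241 CPM through a median of 1657 CPM to 1774 CPM. The highest library of the other gates was 257 CPM for capillary, 355 CPM for large-artery and 120 CPM for arteriolar barcodes, so no library of members overlapped them. Summed over libraries, members had 1593 CPM (exact 95% Poisson interval 1565 to 1621) against 119, 287 and 85.7 CPM. With 2 CPM added to both sides, as in every ratio here, Plvap was 13.2 times the capillary, 5.53 times the large-artery and 18.2 times the arteriolar level.

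Vwf, which encodes von Willebrand factor (chromosome 6, 125546774 to 125686679, plus strand), set members apart from capillaries more than from arteries. Its library values in members ran from 1347 CPM through a median of 1631 CPM to 1866 CPM. Large-artery libraries lay between 1065 and 1248 CPM, just below them. The summed levels were 1624 CPM in members, 67.6 CPM in capillary, 1148 CPM in large-artery and 443 CPM in arteriolar barcodes. The ratio to the large-artery gate was therefore 1.41, under the factor of 2 used for calls. After every barcode was thinned to 2000 UMIs, which left out 75 members, Plvap was found in 88.4% of members and 10.5%, 39.1% and 11.7% of the other gates in the same order, and in 5.46% of fibroblast barcodes. Without thinning the shares were 94.0%, 15.2%, 61.1%, 22.1% and 12.9%.

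To compare all genes, UMIs were summed over the barcodes of a gate. A gene was compared if it reached 30 CPM in either gate, and called if its ratio was at least 2, or at most the inverse, and if each library with at least 20 barcodes in both gates differed the same way. Gate genes and mitochondrial genes were left out. Against the capillary gate 370 of 5677 genes (6.52%) were called higher and 389 (6.85%) lower. Against the large-artery gate 416 of 5627 (7.39%) were higher and 390 (6.93%) lower, and against the arteriolar gate 279 of 5632 (4.95%) were higher and 342 (6.07%) lower. Of 6230 genes compared with at least 1 gate, 103 (1.65%) were called higher against all 3 and 32 (0.514%) lower against all 3. Nothing about the cells is read from these shares, because the rule chose the cells on the same counts.

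The first genes by rank among those above all 3 gates had different known roles. Htr2b, a serotonin receptor gene (chromosome 1, 86099026 to 86111970, minus strand), ran from 31.1 CPM through a median of 38.8 CPM to 41.2 CPM over the libraries of members. In the other gates it stood at 0.203 CPM in capillary (0.0418 to 0.593) and 0.151 CPM in large-artery barcodes (0.0183 to 0.544). No Htr2b UMI was found in the 746 arteriolar barcodes, which allows up to 0.402% of them with a UMI. Member libraries were thus alike and well apart from the rest.

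Adgrg6, an adhesion G protein-coupled receptor gene (chromosome 10, 14402583 to 14545659, minus strand), ran from 130 CPM through a median of 179 CPM to 196 CPM in members. Its summed level was 172 CPM against 7.24, 4.60 and 9.63 CPM in capillary, large-artery and arteriolar barcodes, ratios of 18.8, 26.4 and 14.96. Lepr, the leptin receptor gene, stood at 121 CPM against 9.13, 1.66 and 8.02 CPM. The arteriolar gate came closest for Adgrg6 and the capillary gate for Lepr.

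Sele showed a wider spread between libraries. It ran from 50.1 CPM in library 4 through a median of 106 CPM to 141 CPM in library 1, yet no library of another gate exceeded 8.84 CPM. It was found in 18.03% of members, against 0.429% of capillary, 2.03% of large-artery, 0.134% of arteriolar and 0.191% of fibroblast barcodes. Thinned to 2000 UMIs, the share of members was 9.91% and those of the other endothelial gates were 0.124%, 0.509% and 0.148%. E-selectin transcripts were thus found in a minority of members and in very few other endothelial barcodes at this depth.

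The other genes of highest rank against all 3 gates were Olr1, an oxidised low-density lipoprotein receptor gene (31.4 CPM in members), Masp1, a protease gene of the lectin pathway of complement (35.9 CPM), and Lbp, which encodes lipopolysaccharide binding protein (206 CPM). Lbp stood at 20.02, 19.4 and 18.8 CPM in capillary, large-artery and arteriolar barcodes but at 187 CPM in fibroblast barcodes. F8, which encodes clotting factor VIII, stood at 102 CPM in members against 7.10, 14.99 and 5.96 CPM. Lhx6, a LIM homeobox transcription factor gene, stood at 112 CPM against 14.4, 0.678 and 1.38 CPM. Plekha7, Cadm3, Tll1, Fam174b, Wipf3 and Clca3a1 completed the first 15, with summed levels in members from 33.2 CPM for Tll1 to 189 CPM for Fam174b. Cadm3 (chromosome 1, 173333258 to 173367695, minus strand) overlaps the gate gene Ackr1 on the same strand. Whether its UMIs came from Ackr1 transcripts, on which the rule chose the members, was not tested.

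**Figure D2:**
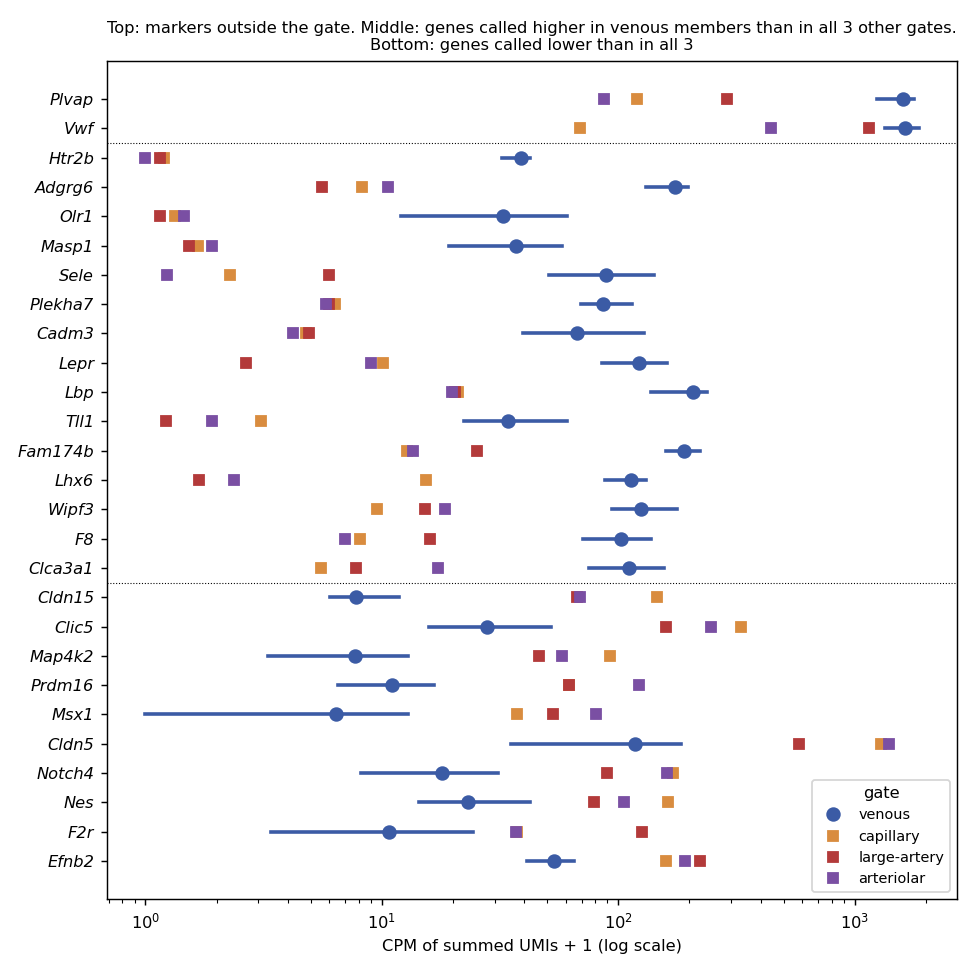
CPM plus 1 on a log axis for Plvap and Vwf (top), the 15 genes of highest rank called higher in members than in all 3 gates (middle) and the 10 of highest rank called lower (bottom); points are levels summed over libraries and blue lines the range over the 6 libraries of members. Plvap stood at 1593 CPM in members against 287 CPM or less elsewhere, and Cldn5 at 117 CPM against 580 CPM or more.

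Genes lower than in all 3 gates included junction and Notch genes. Cldn5, which encodes the tight junction protein claudin-5 (chromosome 16, 18776847 to 18778262, plus strand), ran from 34.3 CPM through a median of 94.1 CPM to 183 CPM in members. Capillary libraries lay between 1003 and 1796 CPM, large-artery libraries between 461 and 743 CPM and arteriolar libraries between 1136 and 1636 CPM. No library of members overlapped those of the other gates. The summed levels were 117 against 1291, 580 and 1395 CPM, or 10.9, 4.91 and 11.8 times lower in members. After thinning, Cldn5 was found in 11.8% of members and 73.5%, 49.5% and 81.6% of the other gates.

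Notch4, an endothelial Notch receptor gene, stood at 17.0 CPM in members against 170, 88.5 and 159 CPM, and Efnb2, which encodes ephrin-B2, at 52.6 CPM against 158, 221 and 191 CPM. The thrombin receptor gene F2r stood at 9.71 CPM against 36.5, 125 and 36.0 CPM. Cldn15, Clic5, Map4k2, Prdm16, Msx1 and Nes were the other 6 of the 10 lower genes of highest rank. Of the 18 genes listed for arterial identity and Notch, Notch4, Efnb2 and Sox17 were among the 32. Of the 19 listed junction and permeability genes, only Cldn5 was. Over all genes compared the share was 0.514%.

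Members also carried transcripts of other cell types. Smooth muscle markers (8 of 8 detected, 4 of them limited by the rule) summed to 3301 CPM in members, against 2834, 2302 and 2748 CPM in capillary, large-artery and arteriolar barcodes and 55966 CPM in smooth muscle barcodes. In members they ran from 2549 CPM in library 2 to 4246 CPM in library 5. Fibroblast markers (5 of 5 detected) summed to between 379 CPM in library 6 and 2699 CPM in library 5, and macrophage markers (6 of 6 detected) to between 94.97 CPM in library 3 and 1267 CPM in library 5. Their totals in members, 1676 and 493 CPM, lay near those of capillary barcodes, 1678 and 418 CPM. Haemoglobin and other red blood cell markers (5 of 5 detected) ran from 2.51 CPM in library 5 through a median of 16.7 CPM to 1267 CPM in library 2, with at least 3 UMIs in 7 members. T cell markers were near 0, with Trac at 0, and so were adipocyte markers, with Plin1 at 0. Platelet markers summed to 15.6 CPM in members, against 6.76, 6.63 and 5.04 CPM in capillary, large-artery and arteriolar barcodes. At least 3 UMIs of Schwann cell markers were found in 2.35% of members, against 0.661%, 0.910% and 0.804%. Their summed level in members, 90.0 CPM, lay between those of large-artery and arteriolar barcodes, 79.3 and 97.2 CPM. Pericyte markers, at 178 CPM in members, were higher in capillary and arteriolar barcodes, at 345 and 291 CPM. Scrublet, which calls likely doublets in each library, called 82 of 1276 members (6.43%), from 2.42% in library 6 to 13.6% in library 5. With these barcodes left out of all gates, 103 of the 103 higher genes and 31 of the 32 lower genes were still called.

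Endothelial barcodes were then clustered without the genes of the gates and filters. Of 14 clusters, 1 cluster of 1461 barcodes held 1080 members (84.6%), and members made up 73.9% of it. The rest of that cluster was 184 barcodes of no gate and 197 of the other gates. The 184 ungated barcodes were shallow, with a median of 1793 UMIs, and carried 1189 CPM of Plvap, 1318 CPM of Vwf and 512 CPM of Nr2f2. These levels resembled those of members there (1816, 1848 and 462 CPM) more than those of ungated barcodes elsewhere (88.2, 193 and 169 CPM).

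The 196 members outside the cluster stood apart. Scrublet called 78 of them (39.8%, 32.9 to 47.0) against 4 of the 1080 inside (0.370%, 0.101 to 0.946). Fibroblast markers summed to 6481 CPM outside and 406 CPM inside, and macrophage markers to 1887 and 124 CPM. Selp stood at 423 CPM outside and 971 CPM inside, and Lrg1 at 693 and 1788 CPM. With the 196 left out, 122 genes were called higher against all 3 gates, 98 of them among the 103, and 77 were called lower, 28 of them among the 32. The count of lower genes thus depended on these barcodes.

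**Figure D3:**
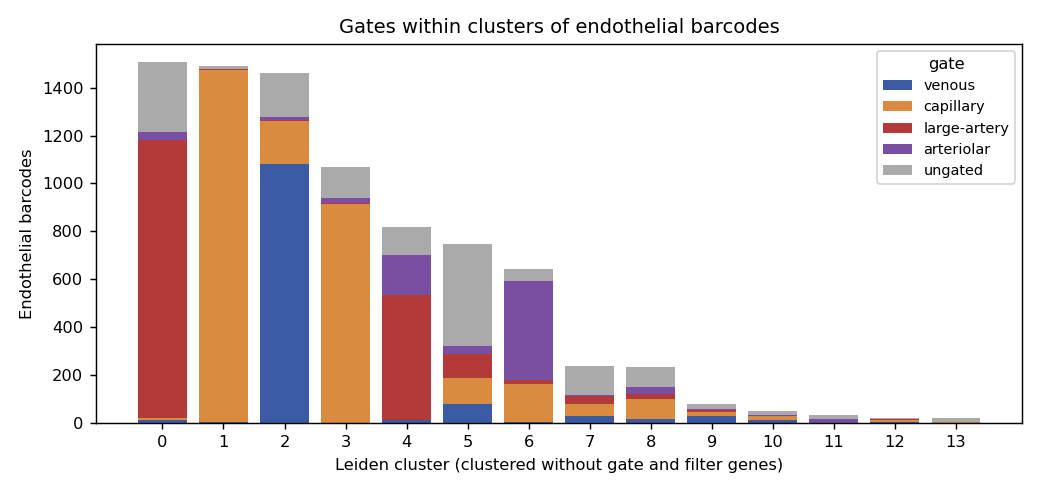
Number of endothelial barcodes in each of 14 Leiden clusters, coloured by gate; the genes of gates and filters were not used for clustering. Cluster 2 held 1080 of the 1276 members, and the rest were spread over other clusters.

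Venous fate regulators were higher than in arterial gates and closer to capillaries. Of the 7 listed, 5 of 5 compared were called higher against the large-artery gate, 5 of 6 higher and 1 lower against the arteriolar gate, and 1 of 6 higher and 1 lower against the capillary gate. The median log2 ratios were 3.64, 3.06 and 0.69, where those over all genes compared were -0.05, -0.07 and -0.10. For this and every list below, 4.95% to 7.39% of all genes compared with 1 gate were called higher and 6.07% to 6.93% lower. Nr2f2 (chromosome 7, 70351944 to 70366735, minus strand) ran from 364 CPM through a median of 428 CPM to 480 CPM in members. It stood at 133 CPM in capillary, 33 CPM in large-artery and 45.2 CPM in arteriolar barcodes, and no library of these overlapped the members. Fibroblast barcodes also carried it at 318 CPM.

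The next 4 regulators stood higher in members and capillary barcodes than in large-artery and arteriolar barcodes. Nrp2, a VEGF and semaphorin co-receptor gene, was at 401 CPM in members and 230 CPM in capillary barcodes, but at 5.27 and 14.0 CPM in large-artery and arteriolar barcodes. The apelin receptor gene Aplnr was at 60.5 CPM in members and 122 CPM in capillary barcodes, against 1.05 and 0.688 CPM. Emcn, which encodes endomucin, was at 811 CPM against 425, 106 and 106 CPM. Ephb4, the receptor gene for ephrin-B2, was at 144 CPM against 95.5, 47.5 and 53.4 CPM. The regulator called lower was Flt4, which encodes VEGF receptor 3, at 11.5 CPM against 51.5 CPM in capillary and 42.9 CPM in arteriolar barcodes.

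Arterial identity genes were called lower more often than higher against each gate. Against the arteriolar gate 0 of 17 were called higher and 13 lower, against the large-artery gate 2 of 15 were higher and 9 lower, and against the capillary gate 1 of 15 was higher and 8 were lower. Median log2 ratios were -1.94, -1.40 and -1.55. Gja4, a connexin gene, stood at 16.5 CPM in members, 320 CPM in large-artery and 238 CPM in arteriolar barcodes. Sox17, an arterial transcription factor gene, stood at 54.7 CPM against 206, 147 and 385 CPM in capillary, large-artery and arteriolar barcodes. The chaperone gene Clu crossed the pattern, at 664 CPM in members against 111 CPM in capillary, 2876 CPM in large-artery and 1703 CPM in arteriolar barcodes. Cxcl12 and Depp1 were the 2 genes called higher against the large-artery gate, at 231 and 103 CPM against 98.5 and 7.38 CPM.

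Capillary and fatty acid genes differed in direction by gate. Of 15 listed, 0 were called higher and 12 lower against the capillary gate, with a median log2 ratio of -3.48, while 8 of 11 were higher and 0 lower against the large-artery gate, with a median of 2.31. Against the arteriolar gate 3 of 13 were higher and 5 lower, with a median of -0.17. Fabp4, a fatty acid binding protein gene, ran from 7970 CPM through a median of 10416 CPM to 13362 CPM in members. Its summed level was 10211 CPM against 30535 CPM in capillary, 338 CPM in large-artery and 5071 CPM in arteriolar barcodes. Cd36, a fatty acid translocase gene, stood at 1213 CPM against 4150, 30.6 and 640 CPM. Some capillary genes were low in members. Lpl, which encodes lipoprotein lipase, stood at 49.8 CPM in members and 1939 CPM in capillary barcodes, and Btnl9 at 3.78 and 604 CPM.

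Vein-associated transcripts were called higher more often than lower. Against the capillary gate 7 of 10 were called higher and 0 lower, against the large-artery gate 4 of 10 were higher and 1 lower, and against the arteriolar gate 7 of 10 were higher and 0 lower. Tll1, Lbp and Fgl2 were higher against all 3. Fgl2, a fibrinogen-like protein gene, stood at 323 CPM against 39.6, 74.7 and 42.9 CPM.

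**Figure D4:**
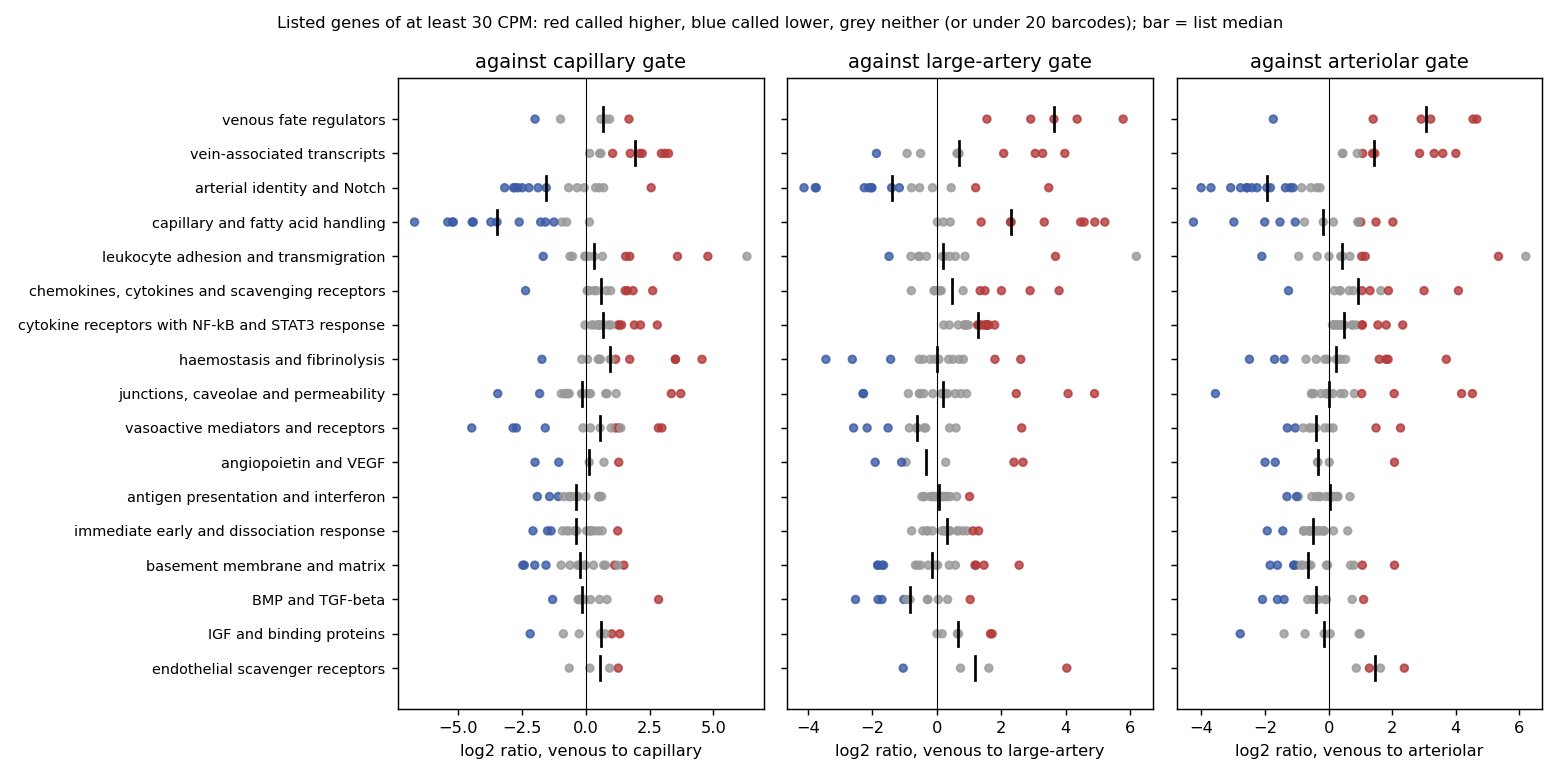
Log2 ratio of members to each of 3 gates (horizontal axes) for the listed genes compared, 1 point per gene, with the median of each list as a bar. Venous fate regulators had medians of 0.69, 3.64 and 3.06 against the capillary, large-artery and arteriolar gates, and arterial identity genes -1.55, -1.40 and -1.94.

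Leukocyte adhesion genes outside the gate were called against each of the other gates. Of 13 compared, 4 were called higher and 1 lower against the capillary gate, 1 of 12 higher and 1 lower against the large-artery gate, and 3 of 12 higher and 1 lower against the arteriolar gate. Over all genes compared, 6.52%, 7.39% and 4.95% were higher against these gates and 6.85%, 6.93% and 6.07% lower. The large-artery counts and the lower counts lay near these shares, and nothing is read from them. Sele alone was higher against all 3. Vcam1, the ligand gene for the leukocyte integrin VLA-4, ran from 464 CPM through a median of 682 CPM to 789 CPM in members. It stood at 50.5 CPM in capillary, 395 CPM in arteriolar and 938 CPM in large-artery barcodes, the last above every library of members. Icam1 stood at 571 CPM against 193, 381 and 257 CPM, and its ratio of 1.496 to the large-artery gate was not a call. Icam2 was called lower against the large-artery gate, at 175 against 494 CPM.

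Cytokine receptors and their response genes were called in 1 direction. Of 18 compared, 6, 10 and 5 were called higher and 0, 0 and 0 lower against the capillary, large-artery and arteriolar gates. The median log2 ratios were 0.68, 1.30 and 0.49. Il6st, which encodes the shared signalling receptor gp130 (chromosome 13, 112464070 to 112510086, plus strand), ran from 1203 CPM through a median of 1486 CPM to 1827 CPM in members. It stood at 207, 471 and 288 CPM in the other gates, ratios of 6.95, 3.08 and 5.015, with no overlap of libraries. The related receptor gene Lifr stood at 437 CPM against 175, 169 and 209 CPM, and the interleukin 1 receptor gene Il1r1 at 97.0 CPM against 24.5, 26.4 and 26.1 CPM. Socs3, a feedback inhibitor gene of these receptors, stood at 697 CPM against 350, 236 and 552 CPM, and was called against the large-artery gate.

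Among chemokines and cytokines, Cxcl10, Il6 and Il33 were called higher against all 3 gates. The counts were 4, 5 and 5 of 12 higher and 1, 0 and 1 lower against the capillary, large-artery and arteriolar gates. Il33, an alarmin gene of the nucleus, was even between libraries, from 81.4 CPM through a median of 115 CPM to 133 CPM. The interferon-inducible chemokine gene Cxcl10 was not, from 15.6 CPM through a median of 33.9 CPM to 193 CPM, and libraries 1 and 5 alone exceeded 100 CPM. Fibroblast barcodes carried 76.0 CPM of Cxcl10, 139 CPM of Il6 and 189 CPM of Il33, against 80.1, 41.9 and 114 CPM in members, and the part of their RNA in these levels was not tested. Cxcl9, another such chemokine, was lower than in capillaries, at 55.1 against 290 CPM.

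Haemostasis genes, a list that holds Vwf, were called in both directions. Against the capillary gate 5 of 13 were called higher and 1 lower, against the large-artery gate 2 of 14 higher and 3 lower, and against the arteriolar gate 4 of 15 higher and 3 lower. Shares over all genes compared with 1 gate were 4.95% to 7.39% higher and 6.07% to 6.93% lower. The 1 lower call against the capillary gate lay near that share, and nothing is read from it. Procr, which encodes the endothelial protein C receptor, stood at 267 CPM in members against 21.6 CPM in capillary, 279 CPM in large-artery and 87.3 CPM in arteriolar barcodes. Thbd, which encodes thrombomodulin, stood at 386 CPM against 198, 366 and 294 CPM and was not called. F8 was the only listed haemostasis gene called higher and F2r the only one called lower against all 3 gates.

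Junction and permeability genes were called in both directions. Against the capillary, large-artery and arteriolar gates 2 of 18, 3 of 18 and 4 of 17 were called higher and 2, 2 and 1 lower, where 6.52%, 7.39% and 4.95% of all genes compared were higher and 6.85%, 6.93% and 6.07% lower. These counts rest on few genes, some lay near the shares over all genes, and no direction is read from them. Plvap was higher and Cldn5 lower against all 3. Aqp1, a water channel gene, stood at 3822 CPM in members and 3369 CPM in capillary barcodes, but at 126 and 164 CPM in large-artery and arteriolar barcodes. Ehd4, a membrane trafficking gene, stood at 1310 CPM in members and 126 CPM in capillary barcodes, with 1423 and 746 CPM in the others.

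Vasoactive genes were called in both directions against each gate. Of 13, 11 and 11 compared with the capillary, large-artery and arteriolar gates, 4, 1 and 2 were called higher and 4, 3 and 2 lower. All genes compared with 1 gate gave 4.95% to 7.39% higher and 6.07% to 6.93% lower. The 1 higher call against the large-artery gate lay near that share, and nothing is read from it. Ptgs1, which encodes cyclooxygenase 1, stood at 416 CPM in members against 51.1, 315 and 85.0 CPM. Edn1, the endothelin 1 gene, stood at 492 CPM against 67.0, 625 and 536 CPM. Ace, which encodes the angiotensin-converting enzyme, stood at 180 CPM against 68.3, 811 and 316 CPM.

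Matrix genes were called in both directions. Of 17, 16 and 16 compared with the same gates, 2, 4 and 2 were called higher and 4, 4 and 4 lower. Among all genes compared with 1 gate, 4.95% to 7.39% were higher and 6.07% to 6.93% lower. Mgp, which encodes matrix Gla protein, stood at 2723 CPM in members, 1143 CPM in capillary, 9702 CPM in large-artery and 9729 CPM in arteriolar barcodes. Eln, the elastin gene, stood at 407 CPM against 185, 1455 and 716 CPM. In the BMP and TGF-beta list, 1 of 11 was called higher against each gate and 1, 4 and 3 were lower. Nothing is read from 1 call of 11, which lies near the shares over all genes. Bmp4 stood at 262 CPM against 34.6, 856 and 122 CPM, and Id1, a BMP target gene, at 240 CPM against 597, 490 and 736 CPM, lower than all 3.

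Few genes of the interferon and antigen presentation list and of the dissociation response list were called. Over all genes compared, 6.52%, 7.39% and 4.95% were called higher against the capillary, large-artery and arteriolar gates. The lower shares were 6.85%, 6.93% and 6.07%, and no direction is read from the counts of either list. These shares hold for the other lists of this paragraph as well. In the first list 0, 1 and 0 of 17, 16 and 17 were called higher and 3, 0 and 2 lower. In the second 1, 2 and 0 of 18 were higher and 3, 0 and 2 lower. The heat shock gene Hspa1a stood at 364 CPM in members against 1538, 626 and 1392 CPM, and Fos at 2754 CPM against 2187, 2326 and 3725 CPM. Of the angiopoietin and VEGF genes, Flt1, a VEGF receptor gene, stood at 988 CPM against 2065, 153 and 971 CPM, and 1, 2 and 1 of 5, 6 and 6 were called higher and 2, 2 and 2 lower. IGF genes gave 2, 2 and 0 of 7, 6 and 7 higher and 1, 0 and 1 lower. Scavenger receptor genes gave 1, 1 and 2 of 4 higher and 0, 1 and 0 lower. Scarb1, a lipoprotein receptor gene of that list, stood at 267 CPM against 420, 14.3 and 49.7 CPM. No cell cycle gene reached 30 CPM, and 3 members (0.235%, 0.0485 to 0.686) had at least 3 UMIs of the 8 cycle genes.

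At a finer resolution of 1.0 the members fell mainly into 2 clusters. The first held 610 members (47.8%) and is called the Htr2b-rich cluster, and the second held 467 (36.6%) and is called the Aplnr-rich cluster, each after a gene that was high in it. Library 6 held 34.7% of its members in the first and 59.7% in the second, whereas library 4 held 54.8% and 34.5%. Their median depths were 5293.5 and 5907 UMIs. With 10 neighbours instead of 20 the largest cluster likewise held 49.9% of members.

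Gate genes took no part in clustering, but they chose the members. Because a member needs a sum C above its sum A, members with more UMIs of the capillary genes had to hold more of the genes in C to be kept, so the rule partly sets the values that follow. Ackr1 stood at 118 CPM in the Htr2b-rich and 452 CPM in the Aplnr-rich cluster, and its library ranges were 78.0 to 206 CPM and 282 to 568 CPM. Tmem252 stood at 154 and 659 CPM, with ranges of 136 to 199 CPM and 410 to 924 CPM. The library ranges of the 2 clusters overlapped for neither gene. Lrg1 was close, at 1810 and 1756 CPM, and Selp stood at 831 and 1145 CPM. The capillary gate genes Gpihbp1 (39.7 and 174 CPM) and Cd300lg (87.0 and 256 CPM) were higher in the Aplnr-rich cluster in 6 of 6 libraries.

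Genes used in clustering are given as descriptions of the clusters only. Between them 124 of 5182 genes (2.39%) were called higher in the Htr2b-rich cluster and 131 (2.53%) lower, from which nothing is read. Mgp stood at 3395 and 721 CPM, and Edn1 at 760 and 274 CPM. The matrix gene Comp stood at 157 and 8.20 CPM, and Htr2b at 78.3 and 2.50 CPM. Procr (410 and 118 CPM) and F8 (168 and 54.5 CPM), both on the haemostasis list, were also higher in the Htr2b-rich cluster. On the other side Aplnr stood at 8.70 and 141 CPM, Igfbp7, an IGF binding protein gene, at 191 and 2215 CPM, and Cysltr1, a leukotriene receptor gene, at 4.06 and 90.9 CPM. Another serotonin receptor gene, Htr2a, was higher in the Aplnr-rich cluster (3.48 and 34.6 CPM), whereas Htr2b gave the other cluster its name. Nr2f2 (517 and 396 CPM), Plvap (1740 and 1911 CPM), Il6st (1594 and 1678 CPM) and Sele (89.3 and 117 CPM) were called for neither.

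**Figure D5:**
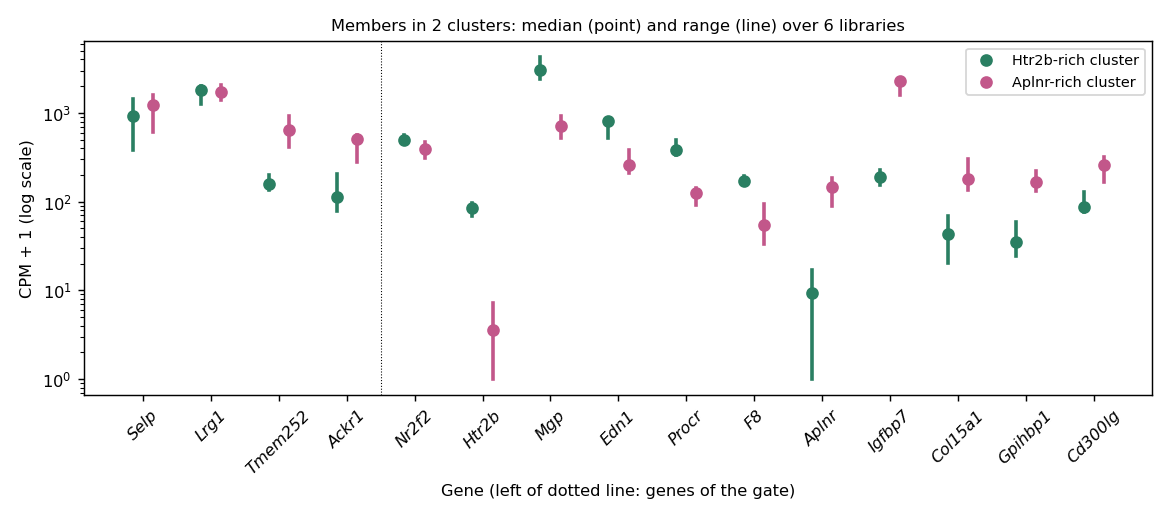
CPM plus 1 on a log axis for genes of the gate (left of the dotted line) and other genes in members of the Htr2b-rich and Aplnr-rich clusters; points are medians and lines ranges over 6 libraries. Ackr1 and Tmem252 ranges did not overlap, while Lrg1 ranges did.

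Members were also grouped by the gate gene with the most UMIs. Lrg1 led in 821 members (64.3%), Selp in 281 (22.0%), Tmem252 in 65, Ackr1 in 33, and 76 were tied. Selp-led members ranged from 11.3% in library 4 to 31.1% in library 3. In Selp-led members Sele stood at 208 CPM against 54.3 CPM in the other members and was higher in 6 of 6 libraries. Cxcl10 stood at 190 against 49.2 CPM, in 5 of 6 libraries. In Lrg1-led members Vcam1 stood at 435 against 977 CPM and was lower in 6 of 6 libraries. In Tmem252-led members Cldn5 stood at 510 against 93.9 CPM, higher in the 4 libraries with enough members. Besides Sele, the other selectin gene, Selp-led members also carried more of Gja4, a gene of the arterial list. Gja4 stood at 40.7 CPM in them against 9.70 CPM in the other members, higher in 6 of 6 libraries.

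Values varied between libraries mostly by modest factors. Over 2617 genes with at least 50 UMIs in the members of every library, the fold from lowest to highest library had a median of 1.42, and it exceeded 3 for 22 genes. The widest were the collagen gene Col1a2 (8.25), Cd74 (7.81), Gsn (7.40), Dcn (6.92), Gm42418 (6.85) and H2-Aa (5.84). All but Gm42418 were highest in library 5, where the fibroblast and macrophage markers of members were also highest. The part of RNA from other cells in these values was not tested. The narrowest were Aldh2 (1.05) and Fnta (1.06).

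Promoter letters of the called genes are given as counts. RefSeq held 104 windows for 80 of the 103 genes higher against all 3 gates and 26 windows for 24 of the 32 lower genes. NF-kB letters occurred in 21.2% of windows of higher genes, 19.2% of lower genes and 11.3% of the 6392 windows of all genes compared. AP-1 letters occurred in 13.5%, 11.5% and 5.3%. STAT letters occurred in 3.8%, 0.0% and 6.4%, C/EBP letters in 8.7%, 15.4% and 8.0%, and GATA letters in 8.7%, 3.8% and 5.8%.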

How the data were processed

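Single-cell RNA sequencing of 6 aortic samples was read from the matrix of UMI counts that the authors deposited (55450 genes, 60871 barcodes, 399340994 UMIs). It was written by cellranger-6.1.2 per the file headers, while the submitters' processing notes name GRCm38, bcl2fastq, Seurat 3.1.1 and Cell Ranger 3.1.0. No source used here says whether depth was equalised between libraries. Columns of per-sample values left out numbered 0.

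Members, lists and tests of size were chosen with earlier results of these data known. Counts were summed per gate and library and expressed as CPM, with exact 95% Poisson intervals, and shares with Clopper-Pearson intervals. The matrix pools samples without a map from cells to samples, so no p-value is given. The size rule was also run on simulated Poisson counts. These had no spread between libraries beyond counting error and no choice of cells by the rule. That run therefore cannot bear on either in the real data. Doublets were called with Scrublet in scanpy 1.11.5 and kept, and left out in an alternative. Clustering used 30 principal components, 20 neighbours and Leiden resolution 0.5 (leidenalg 0.10.2) without batch integration. The fibroblast gate required no endothelial UMI and at least 5 UMIs of Dcn, Lum and Pdgfra. Coordinates are from GENCODE M21, in which all 55450 identifiers were found. Python 3.11.15, numpy 2.4.6, scipy 1.17.1 and pandas 2.3.3 were used.

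Named genes are the 6 markers, up to 5 called and 2 uncalled genes of highest CPM in each of 18 lists (253 genes), the first 15 higher and 10 lower genes against all 3 gates, the 6 widest and 2 narrowest over libraries, and 4 listed genes per leading gate gene. Other genes, among them the cluster genes, Sox17, Flt4, Lpl, Btnl9, Fgl2, Il1r1 and Il6, were chosen after their values were seen. Of the listed genes, 1 is not reported here. Alternatives changed limits of the gate, the filters, the added CPM, the ratio and the weighting, and left out doublets, single gate genes and single libraries.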

Additional observations from a re-analysis of the deposited data

How the results depend on the processing

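No paired analysis was possible because the barcodes match no sample label. The 1276 members numbered 1352 and 1117 with a minimum of 2 and 5 UMIs in each sum, 1193 with 10% mitochondrial UMIs, 1163 with 0.5% smooth muscle UMIs, 1194 without doublets, and 1150, 764 and 1210 with Selp, Lrg1 and Tmem252 left out of C. With 1 library left out they numbered 966 to 1157. The 103 genes higher against all 3 gates numbered 48 with a minimum of 100 CPM, 169 with none, 200 at a ratio of 1.5 and 57 at a ratio of 3, and 99 to 113 with 1 library left out. The 32 lower genes numbered 12, 55, 66 and 9 under those settings, 18 with 10 CPM added, and 27 to 36 with 1 library left out. Stricter or looser limits change these counts by construction. With the 196 members outside the main cluster left out, an alternative chosen after seeing the data, 77 genes were lower. Ccl7 against the large-artery gate then had a ratio of 0.593 and Mrc1 against the arteriolar gate 0.615, the reverse of their calls, and the cause was not tested. The largest cluster held 84.6% of members, 47.8% at resolution 1.0 and 49.9% with 10 neighbours, as the members were split. Of 220 calls of named genes, 164 were kept with a minimum of 100 CPM, 165 at a ratio of 3, and 204 to 220 under each other alternative. Depth limits absent transcripts: for a count of 0, up to 0.235% of members could hold a UMI.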

Other observations

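A few members of library 5 carried transcripts known from high endothelial venules, the vessels through which lymphocytes enter lymph nodes. Glycam1, which encodes a sulphated mucin ligand of L-selectin, had 1283 UMIs in members, found in 6 members (0.470%), and 3 members of library 5 held 1273 of them. The same 3 members held 281 of 390 UMIs of the chemokine gene Ccl21a, 8 of 8 of the fucosyltransferase gene Fut7, 8 of 11 of the sulphotransferase gene Chst4 and 119 of 381 of Enpp2, which encodes autotaxin. Each also had 28 to 45 UMIs of Lrg1 and 5 to 8 of Ackr1, and none had a UMI of Madcam1. Scrublet called 2 of the 3. Glycam1 in members stood at 161.8 CPM with them and 1.27 CPM without them, and Ccl21a at 49.2 and 13.8 CPM. With them left out, an alternative chosen after seeing the data, 103 of the 103 genes were still called higher against all 3 gates. These genes were followed after their values had been seen.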
